A study of Mus musculus with 8 samples.

Results

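The genes described here are 10 genes of the Hippo pathway and its output: the kinases Lats1 and Lats2, the coactivators Yap1 and Wwtr1 (which encodes TAZ), the DNA-binding partner Tead1, the scaffold proteins Ajuba and Amotl2, and the target genes Cyr61, Ctgf and Ankrd1. They were taken by symbol from a table of 35963 gene symbols, in which they had 34 transcripts, and Cyr61 and Ctgf are now named Ccn1 and Ccn2. Of the 10 genes, 9 had counts in at least 1 library, and 8 passed the filter on low counts and were tested.

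RNA was sequenced from epithelial cells that a buffer had released from the proximal colon of mice aged 4 weeks. The 4 libraries labelled Ccna2-KO came from Ccna2 fl/fl mice that also carried vil-Cre, and the 4 control libraries from Ccna2 fl/fl mice without Cre. Mice of both groups therefore carried the floxed Ccna2 alleles, and the villin promoter that drives Cre is active throughout the intestinal epithelium. Ccna2 encodes cyclin A2, and the comparison asks which transcripts differ when this gene is targeted in the colonic epithelium.

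In the Hippo pathway, upstream proteins at cell junctions activate a kinase cascade that ends in LATS1 and LATS2. These kinases phosphorylate YAP and TAZ, which keeps both out of the nucleus. Unphosphorylated YAP and TAZ enter the nucleus, bind TEAD proteins and switch on genes of growth, adhesion and matrix. In the mouse intestine YAP is best known for its part in regeneration after injury. The state of the pathway is set largely by phosphorylation, which RNA levels do not report.

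The RNA of Ccna2 itself did not separate the groups. It had 18.2, 26.6, 26.6 and 16.2 CPM (counts per 1000000 of the scaled library size) in Ccna2-KO libraries, against 54.3, 25.9, 11.9 and 18.3 CPM in control libraries (log2 fold change -0.33 ± 0.41 SE, edgeR adjusted p = 0.673), so every direction below rests on the labels, by which the libraries are named. The labels do not say which exons Cre removes, and the table counts the whole gene. Each library held between 27162083 and 34386731 estimated counts. Nothing in the labels says that each library came from a separate mouse, so a p-value here is set by library-to-library spread, which may be technical. The labels also number the libraries, from 595 to 598 (3 controls and Ccna2-KO replicate 4) and from 621 to 641 (control replicate 1 and the other 3 Ccna2-KO libraries), and this division overlaps with genotype. Control replicate 1 lay apart from the other controls for several of the genes below. Across the 10 epithelial marker genes, Epcam and Krt8 among them, 0 passed the edgeR test, where 12.1% of all genes did. At an unadjusted p under 0.05, 1 was higher (Car1) and 2 lower (Cdx1 and Cdx2), with 1 higher in DESeq2 and 0 in limma voom. With the division by library number in the fit, Car1 rose (0.56 ± 0.17 SE, edgeR adjusted p = 0.0492), where 9.29% of all genes rose. The summed level of the 10 was 34499 to 42932 CPM in Ccna2-KO libraries and 32167 to 37390.1 CPM in control libraries. Car1 alone averaged 16396 CPM in Ccna2-KO libraries and 12106 CPM in control libraries.

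Promoter sequences are shown first for 3 genes whose levels did not overlap between the groups. They are the 250 bases before the outermost annotated start, taken from RefSeq on GRCm38.p6, with no base inside a GENCODE exon. Each is written 5′ to 3′ on the strand of the gene, which is the minus strand in all 3, and capitals mark GGAATG or its reverse complement CATTCC, the core of the TEAD binding motif. The Cyr61 window is chr3:145649986-145650235, the Wwtr1 window chr3:57575911-57576160 and the Ajuba window chr14:54577662-54577911.
Cyr61: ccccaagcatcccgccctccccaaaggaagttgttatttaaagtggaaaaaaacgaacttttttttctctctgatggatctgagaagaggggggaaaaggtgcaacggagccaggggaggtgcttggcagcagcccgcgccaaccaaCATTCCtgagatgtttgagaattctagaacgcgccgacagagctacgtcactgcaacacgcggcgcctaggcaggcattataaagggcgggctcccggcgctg
Wwtr1: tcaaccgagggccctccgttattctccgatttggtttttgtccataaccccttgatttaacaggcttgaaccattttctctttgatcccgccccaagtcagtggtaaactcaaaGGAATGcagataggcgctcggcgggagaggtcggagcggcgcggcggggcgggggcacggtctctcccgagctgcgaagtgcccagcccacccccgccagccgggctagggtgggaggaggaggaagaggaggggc
Ajuba: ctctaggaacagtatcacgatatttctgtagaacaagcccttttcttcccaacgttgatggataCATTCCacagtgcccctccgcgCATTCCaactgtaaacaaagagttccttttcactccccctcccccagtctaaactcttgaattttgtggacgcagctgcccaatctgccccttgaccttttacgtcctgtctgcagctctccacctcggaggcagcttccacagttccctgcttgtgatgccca

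The Cyr61 window held 1 TEAD core, 103 to 98 bases before the start, and the Wwtr1 window 1, 136 to 131 bases before it. The Ajuba window held 2, at 186 to 181 and 164 to 159 bases, but no GENCODE transcript began at the Ajuba start. Of the 10 genes, 8 were in the RefSeq promoter table, and 6 of these had at least 1 TEAD core on either strand (Yap1, Wwtr1, Cyr61, Ankrd1, Amotl2 and Ajuba). The core occurred in 12.6% of all 32851 promoter windows of this length. The AP-1 motif TGANTCA (6.75% of windows), the cyclic AMP response element TGACGTCA (1.55%) and the CArG box of serum response factor (1.47%) had 0 matches in the 8 windows. With shares this low, 0 matches in 8 windows says little, and shorter or variant forms of these motifs were not searched. The 3 genes shown share the TEAD core but not their direction, since Cyr61 and Ajuba had lower and Wwtr1 higher levels in Ccna2-KO libraries. A match in these letters is a description and does not show that a TEAD protein binds there.

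Cyr61 carried the largest difference among the 8 genes tested. The gene lies on the minus strand of chromosome 3 between positions 145646971 and 145649985 (GRCm38) and has 5 exons. It encodes a secreted matrix protein that binds integrins, and in many cell types it is both a YAP target and an immediate early gene. Its level was 71.7, 79.5, 68.1 and 85.5 CPM in Ccna2-KO libraries, against 220.2, 259, 200.3 and 286 CPM in control libraries. All Ccna2-KO libraries lay below all controls, and the lowest control, at 200.3 CPM, stood far above the highest Ccna2-KO library, at 85.5 CPM. The means were 76.2 ± 7.84 CPM in Ccna2-KO libraries and 241 ± 38.3 CPM in control libraries (SD, n = 4 each). The fitted log2 difference was -1.66 ± 0.14 SE (edgeR adjusted p = 0.000231), which corresponds to a level 3.17-fold lower. Within the low library numbers, Ccna2-KO replicate 4 had 85.5 CPM and the 3 controls 200.3 to 286 CPM. Within the high numbers, the 3 Ccna2-KO libraries had 68.1 to 79.5 CPM and control replicate 1 had 220.2 CPM. The difference therefore had the same direction on both sides of that division. Its size on each side rests on a single library of 1 genotype.

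For the related CCN genes Ctgf and Nov, the levels of the groups overlapped. Ctgf, which encodes the connective tissue growth factor and is the target most often read out for YAP, was scarce. It had 2, 2, 3 and 4 counts in Ccna2-KO libraries and 3, 4, 6 and 2 counts in control libraries, below the filter on low counts. The ratio of the summed 11 and 15 counts was 0.726 (95% exact interval 0.301 to 1.69, counting error only), so a difference was not detectable at this depth. Exons of Ctgf overlap Gm15270 on the opposite strand, and the labels do not say whether counting used strand. Nov (now Ccn3), the sole other CCN gene tested, averaged 94.7 ± 39.3 CPM in Ccna2-KO libraries and 94.2 ± 91.8 CPM in control libraries (SD, n = 4 each, log2 fold change 0.01 ± 0.59 SE, edgeR adjusted p = 0.994). Control replicate 1 alone held 230.2 CPM of Nov, against 28.3 to 59.7 CPM in the other controls.

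Ankrd1, an ankyrin repeat protein of muscle and a common YAP reporter gene, had 0 counts in all 8 libraries. A count of 0 allows a level of up to 0.0249 CPM over the Ccna2-KO libraries and 0.0251 CPM over the control libraries (3 counts in the summed libraries). Its promoter window held 2 TEAD cores, and all 250 bases of that window lay inside GENCODE exons.

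**Figure D1:**
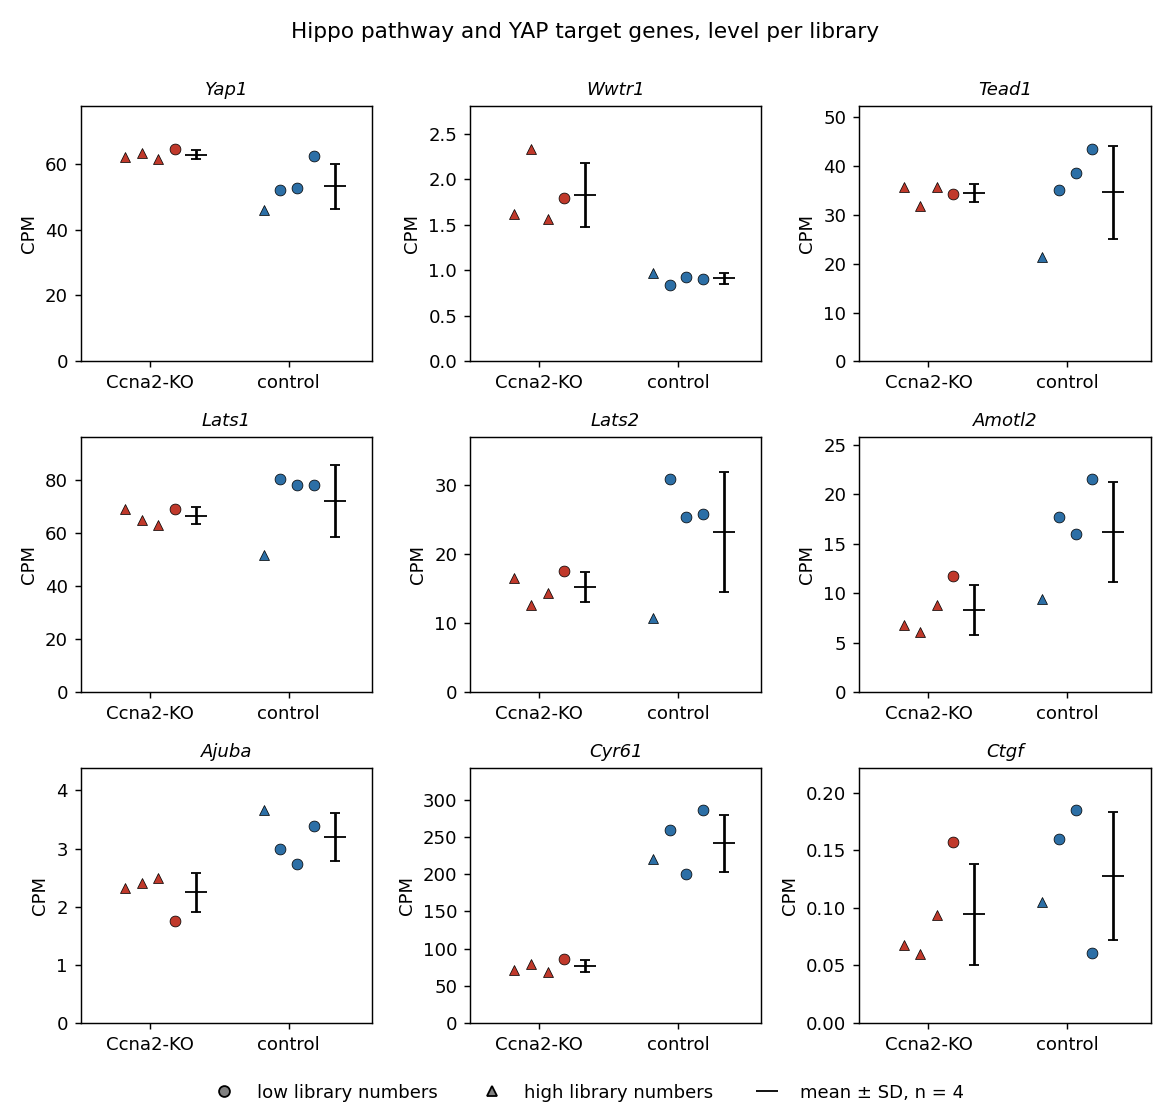
Level in CPM (vertical axis of each panel, from 0) of 9 genes in the 4 Ccna2-KO libraries (red) and the 4 control libraries (blue), with the mean ± SD beside each group and the marker shape giving the library number set. Cyr61 and Ajuba lie lower and Wwtr1 higher in all Ccna2-KO libraries, while for Yap1, Lats1, Lats2, Tead1 and Amotl2 control replicate 1 (blue triangle) lies below the other controls.

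The coactivators differed in level and in the test. Wwtr1 rose, although its RNA was scarce. It had 48, 78, 50 and 46 counts (1.62, 2.34, 1.56 and 1.8 CPM) in Ccna2-KO libraries, against 28, 21, 30 and 30 counts (0.976, 0.838, 0.923 and 0.909 CPM) in control libraries. All 4 Ccna2-KO libraries lay above all controls, with means of 1.83 ± 0.355 CPM in Ccna2-KO libraries and 0.911 ± 0.0567 CPM in control libraries (SD, n = 4 each). The fitted log2 difference was 1.0 ± 0.22 SE (edgeR adjusted p = 0.018). The call ended without Ccna2-KO replicate 2 (adjusted p = 0.0622), control replicate 2 (0.053) or control replicate 4 (0.0527), with log2 fold changes of 0.86 to 1.0. Of the 2 annotated transcripts, NM_133784.3 took 96.6% of the Wwtr1 counts, and the other had counts in control replicate 4 alone.

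Yap1, the more abundant coactivator, did not pass the test. It had 61.9, 63.2, 61.4 and 64.6 CPM in Ccna2-KO libraries, against 45.8, 51.9, 52.6 and 62.4 CPM in control libraries. The Ccna2-KO libraries were tightly grouped and near the upper end of the controls, and control replicate 4 lay inside their range. The fitted log2 difference was 0.24 ± 0.10 SE (edgeR adjusted p = 0.182), and 0.33 ± 0.10 SE (adjusted p = 0.0507) once the division by library number entered the fit (the library number set term). Counts of Yap1 were divided mainly between NM_001171147.1, with 67.8% ± 3.33 in Ccna2-KO libraries and 68.0% ± 5.29 in control libraries, and NM_009534.3, with 26.3% ± 3.09 in Ccna2-KO libraries and 22.6% ± 3.68 in control libraries (SD, n = 4 each). For these transcripts the spread within the groups was of the same order as the differences, and no test of the shares was made. Other Yap1 transcripts, named after their values were seen, held few counts. XM_006509855.3 had 16.3, 31.8, 13.5 and 21.9 counts in Ccna2-KO libraries and 0 in all 4 control libraries. It passed when transcripts were tested singly (edgeR adjusted p = 0.046), where 0.930% of all transcripts tested passed (0.591% higher and 0.339% lower). XM_006509852.2 took 3.21% ± 2.05 of the Yap1 counts in Ccna2-KO libraries and 7.03% ± 0.705 in control libraries (SD, n = 4 each), and it did not pass when tested singly (adjusted p = 0.559). Exons of Yap1 overlap Gm20416 on the opposite strand.

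Tead1, a DNA-binding partner of YAP and TAZ, had nearly equal means. Its level was 35.8, 31.9, 35.7 and 34.3 CPM in Ccna2-KO libraries, against 21.3, 35.1, 38.5 and 43.6 CPM in control libraries, so that the controls spanned the Ccna2-KO values on both sides (log2 fold change -0.01 ± 0.19 SE, edgeR adjusted p = 0.982). Without control replicate 1 the log2 fold change was -0.18 (adjusted p = 0.174), and with the library number set term it was 0.25 (adjusted p = 0.387). The shares of its 10 annotated transcripts varied widely between libraries. NM_001166585.1 took between 26.5% and 74.9% of the Tead1 counts in Ccna2-KO libraries and between 46.0% and 95.8% in control libraries. Such swings fall within both groups, and the summed gene is the steadier measure.

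Among the kinases, Lats1 did not pass, and control replicate 1 stood apart. The level was 69.1, 65.1, 63.1 and 69.3 CPM in Ccna2-KO libraries, against 51.7, 80.3, 78.1 and 78.2 CPM in control libraries (log2 fold change -0.11 ± 0.14 SE, edgeR adjusted p = 0.674). The Ccna2-KO values all lay between control replicate 1 and the other 3 controls. Without that library the log2 fold change was -0.24 ± 0.07 SE (adjusted p = 0.027), and with the library number set term it was 0.08 (adjusted p = 0.678).

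Lats2, which is both a kinase of the cascade and a YAP target that feeds back on it, showed the same arrangement with a wider gap. It had 16.5, 12.6, 14.4 and 17.5 CPM in Ccna2-KO libraries, against 10.7, 30.8, 25.3 and 25.8 CPM in control libraries (log2 fold change -0.60 ± 0.28 SE, edgeR adjusted p = 0.211). Control replicate 1 had the lowest level of all 8 libraries, and the other 3 controls the highest. Without it the log2 fold change was -0.84 ± 0.13 SE (adjusted p = 0.00172). With the library number set term it was -0.11 ± 0.23 SE (adjusted p = 0.783). Among the high library numbers, the Ccna2-KO libraries had 12.6 to 16.5 CPM, above the 10.7 CPM of control replicate 1, and among the low numbers Ccna2-KO replicate 4 had 17.5 CPM, below the 25.3 to 30.8 CPM of the 3 controls. The direction thus differed between the number sets, each of which held a single library of 1 genotype. Exons of Lats2 overlap Gm49361 on the same strand, so reads of the overlap could come from either gene. How the counting treated such reads was not examined.

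Amotl2, an angiomotin family scaffold that binds YAP at junctions and is itself a YAP target, came close to the threshold. It had 6.77, 6.06, 8.77 and 11.7 CPM in Ccna2-KO libraries, against 9.44, 17.7, 16.0 and 21.5 CPM in control libraries. Of the Ccna2-KO libraries 3 lay below all controls, and replicate 4 lay above control replicate 1. The fitted log2 difference was -0.96 ± 0.28 SE (edgeR adjusted p = 0.0549). It was -1.15 (adjusted p = 0.0047) without control replicate 1, -1.16 without Ccna2-KO replicate 4, which also passed (adjusted p = 0.0352), and -0.52 ± 0.18 SE (adjusted p = 0.0685) with the library number set term. In all, 7 of the 18 alternative fits called Amotl2, among them DESeq2 (-0.95, adjusted p = 0.0102) and plain library totals (-0.98, adjusted p = 0.0412). The minor Amotl2 transcript XM_006511772.2 was counted only in control replicates 2, 3 and 4 (62.7, 41.0 and 58.9 counts), and XM_006511773.2 only in control replicates 3 and 4 (28.3 and 35.5 counts). The RefSeq window before the Amotl2 start held 1 TEAD core, 65 to 60 bases upstream, and 136 of its 250 bases lay inside GENCODE exons.

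Ajuba, a LIM domain protein that binds LATS kinases and limits their activity, was scarce in both groups. It had 2.32, 2.4, 2.5 and 1.76 CPM in Ccna2-KO libraries, against 3.66, 2.99, 2.74 and 3.39 CPM in control libraries. The groups did not overlap, yet the gene did not pass the test (log2 fold change -0.51 ± 0.20 SE, edgeR adjusted p = 0.137). With the library number set term it passed, at -0.69 ± 0.19 SE (adjusted p = 0.0372), where 18.2% of all genes passed (9.29% higher and 8.90% lower).

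Over the 8 genes tested, 1 rose (Wwtr1) and 1 fell (Cyr61), where 12.1% of all 15893 genes passed the same test (6.40% higher and 5.71% lower). Their median log2 fold change was -0.31, against -0.01 over all genes tested. The groups did not overlap for 3 of the 8 (Wwtr1, Cyr61 and Ajuba), against 19.0% of all genes (9.41% higher and 9.60% lower). Without control replicate 1, 4 fell (Cyr61, Amotl2, Lats2 and Lats1) and 1 rose, against 13.4% and 15.1% of all genes in that fit. Without control replicate 1, 28.5% of all genes passed in either direction. Cyr61 passed in all 18 alternative fits at gene level, with log2 fold changes between -1.74 and -1.56 and adjusted p between 1.18e-25 and 0.00247.

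**Figure D2:**
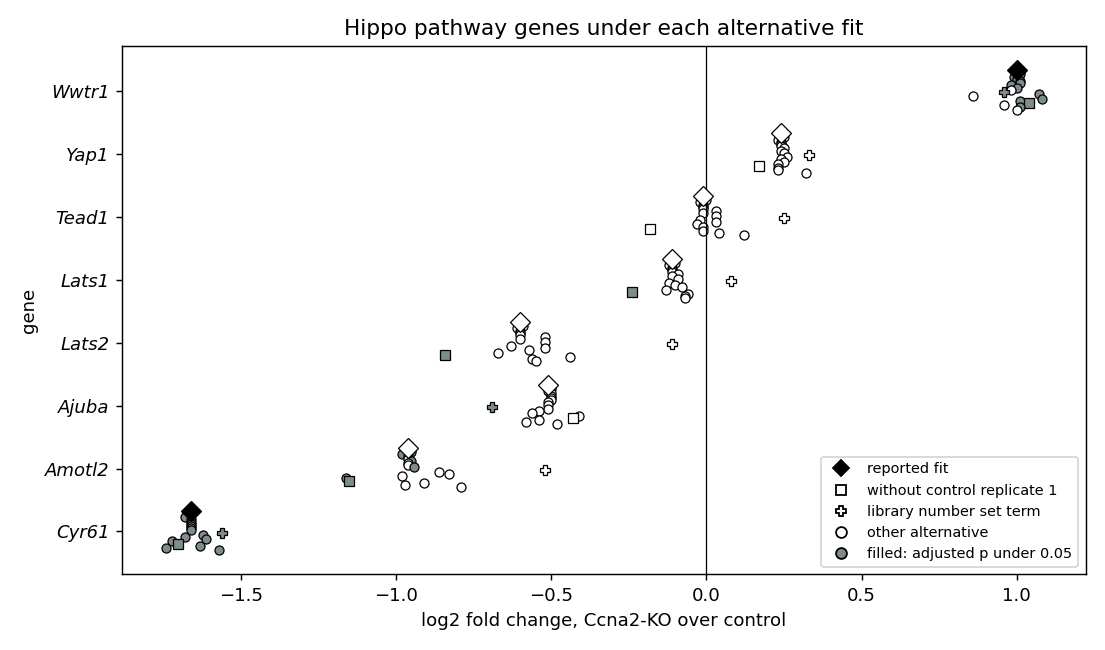
Log2 fold change (horizontal axis, Ccna2-KO over control) of the 8 tested genes in the reported fit (diamond) and in each alternative, with filled symbols where the adjusted p was under 0.05. Cyr61 stays filled throughout, between -1.74 and -1.56, while Lats2 moves from -0.84 without control replicate 1 (square) to -0.11 with the library number set term (plus).

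Per kilobase of the main annotated transcript, the order of levels of the 10 genes was similar in both groups. Cyr61 stood highest, at 37.7 ± 3.88 CPM per kilobase in Ccna2-KO libraries and 119 ± 19.0 CPM per kilobase in control libraries. Yap1 came next, at 15.0 ± 0.341 and Lats1 at 9.25 ± 0.424 CPM per kilobase in Ccna2-KO libraries, and Yap1 at 12.7 ± 1.65 and Lats1 at 10.0 ± 1.89 CPM per kilobase in control libraries (SD, n = 4 each). The control ranges of Yap1 (11 to 15) and Lats1 (7.17 to 11.1) touched, whereas the Ccna2-KO ranges did not. Tead1, Lats2 and Amotl2 followed, between 1.40 and 3.77 CPM per kilobase in Ccna2-KO libraries and between 2.06 and 5.93 in control libraries. Their ranges overlapped in the controls. In Ccna2-KO libraries the range of Lats2 (2.43 to 3.38) overlapped those of Tead1 (3.36 to 3.77) and Amotl2 (1.40 to 2.71). Wwtr1 was low in both groups, at 0.390 ± 0.0755 CPM per kilobase in Ccna2-KO libraries and 0.194 ± 0.0121 in control libraries, far under its paralog Yap1. Ajuba lay between, at 0.661 ± 0.0967 CPM per kilobase in Ccna2-KO libraries and 0.941 ± 0.121 in control libraries.

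The wider pathway was described from lists chosen with earlier results known. Among 22 genes of upstream inputs and scaffolds, 20 were tested, 1 rose and 0 fell, with a median log2 fold change of -0.08, where 6.40% of all genes rose and 5.71% fell. At an unadjusted p under 0.05, 3 were higher and 2 lower, while DESeq2 called 2 higher and 1 lower and limma voom 1 higher and 0 lower. Of all genes, DESeq2 called 1518 higher and 1431 lower, and limma voom 1129 higher and 838 lower. These counts stand beside every list described here, and the share of all genes at the unadjusted p is not given. With the library number set term 4 rose and 0 fell, against 9.29% and 8.90% of all genes. Without control replicate 1, 2 rose and 3 fell, against 15.1% and 13.4% of all genes in that fit. The gene that rose was Fat1, a giant atypical cadherin, with 404 ± 51.6 CPM in Ccna2-KO libraries and 217 ± 75.6 CPM in control libraries (SD, n = 4 each). The fitted log2 difference was 0.90 ± 0.25 SE (edgeR adjusted p = 0.0468), a call that ended without any 1 of the 7 libraries other than control replicate 1 (adjusted p up to 0.111). The abundant junction genes Llgl2 (-0.30 ± 0.16 SE, adjusted p = 0.274) and Tjp1 (0.12 ± 0.22 SE, adjusted p = 0.779) did not pass.

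The kinase core beside the LATS kinases held 14 genes, all tested, of which 0 rose and 1 fell, with a median of -0.10, a share near the 5.71% of all genes that fell. The same counts held at an unadjusted p under 0.05, in DESeq2 and in limma voom, whereas 4 fell without control replicate 1, where 13.4% of all genes did. Map4k5, a kinase that can act in parallel with the MST kinases, averaged 22.9 ± 3.65 CPM in Ccna2-KO libraries and 34 ± 3.83 CPM in control libraries (SD, n = 4 each, log2 fold change -0.57 ± 0.14 SE, edgeR adjusted p = 0.0305). That call also ended when single libraries were left out, with an adjusted p of up to 0.0932, except without control replicate 1 or Ccna2-KO replicate 4. Stk3 and Stk4, which encode the MST kinases of the cascade, had log2 fold changes of -0.07 ± 0.11 and -0.12 ± 0.14 SE (adjusted p = 0.734 and 0.632), values given although the naming rule did not take these genes. Mink1 (-0.08 ± 0.14 SE), Stk38 (0.08 ± 0.10 SE) and Mob1a (0.02 ± 0.15 SE) did not pass either, with adjusted p of 0.789, 0.687 and 0.947 in edgeR.

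Of the other TEAD and VGLL genes, 4 of 7 were tested and 0 passed in either direction in edgeR, DESeq2 or limma voom, with 0 higher and 1 lower (Tead3) at an unadjusted p under 0.05. Tead2 had 2.39, 3.51, 3.15 and 1.65 CPM in Ccna2-KO libraries, against 2.79, 0.479, 0.8 and 1.09 CPM in control libraries (1.05 ± 0.49 SE, adjusted p = 0.213). Control replicate 1 lay with the Ccna2-KO libraries, and without it Tead2 passed at 1.74 ± 0.35 SE (adjusted p = 0.00596). Tead3 averaged 28.5 ± 2.24 CPM in Ccna2-KO libraries and 35.1 ± 5.54 CPM in control libraries (SD, n = 4 each). It had a log2 fold change of -0.30 ± 0.13 SE (adjusted p = 0.179), and it passed without the same library at -0.41 ± 0.09 SE (adjusted p = 0.00877). Neither passed with the library number set term, Tead2 at 0.53 ± 0.32 SE (adjusted p = 0.269) and Tead3 at -0.13 ± 0.11 SE (adjusted p = 0.435). Vgll4, a competitor of YAP for TEAD, was near 0 at -0.02 ± 0.12 SE (adjusted p = 0.941).

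In a published signature of 22 YAP and TAZ target genes from human cancers, genes moved in both directions. It shares Cyr61, Ctgf, Ankrd1, Amotl2 and Lats2 with the 10 genes. Of the 22, 15 were tested, 3 rose and 3 fell, with a median of -0.11, where 6.40% of all genes rose and 5.71% fell, and Ankrd1 and Foxf2 had 0 counts in all libraries. With single libraries left out, 1 to 3 rose and 2 to 6 fell, and the 3 that rose and 6 that fell without control replicate 1 stand beside 15.1% and 13.4% of all genes in that fit. With the library number set term 4 rose and 3 fell, with a median of 0.13, where 9.29% of all genes rose and 8.90% fell. The genes that rose were Arhgef17, Myof and F3. Arhgef17, a guanine nucleotide exchange factor, averaged 1.85 ± 0.263 CPM in Ccna2-KO libraries and 0.534 ± 0.229 CPM in control libraries (SD, n = 4 each, log2 fold change 1.79 ± 0.30 SE, edgeR adjusted p = 0.00651). Myof, a ferlin of membrane repair, averaged 60.4 ± 1.67 CPM in Ccna2-KO libraries and 40.7 ± 6.32 CPM in control libraries (0.57 ± 0.12 SE, adjusted p = 0.0154, and 0.0505 without control replicate 4). F3, tissue factor, rose by 0.56 ± 0.15 SE (adjusted p = 0.0378), a call lost without any 1 of 6 libraries (adjusted p up to 0.105).

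Those that fell beside Cyr61 were Gadd45a and Rbms3. Gadd45a, a stress-induced gene that p53 also activates, averaged 90.1 ± 24.6 CPM in Ccna2-KO libraries and 168 ± 26.3 CPM in control libraries (SD, n = 4 each, log2 fold change -0.90 ± 0.19 SE, edgeR adjusted p = 0.0173). Its call ended without Ccna2-KO replicate 1, 2 or 3 (adjusted p up to 0.0613). Rbms3, an RNA-binding protein, averaged 1.93 ± 0.567 CPM in Ccna2-KO libraries and 5.06 ± 1.24 CPM in control libraries (-1.39 ± 0.29 SE, adjusted p = 0.0147). Dock5 (0.27 ± 0.21 SE), Nuak2 (-0.11 ± 0.28 SE) and Nt5e (0.08 ± 0.37 SE) did not pass, with adjusted p of 0.457, 0.855 and 0.918. Among the signature genes in the promoter table, 6 of 15 had a TEAD core, and these did not include Gadd45a, Rbms3, Myof or F3.

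**Figure D3:**
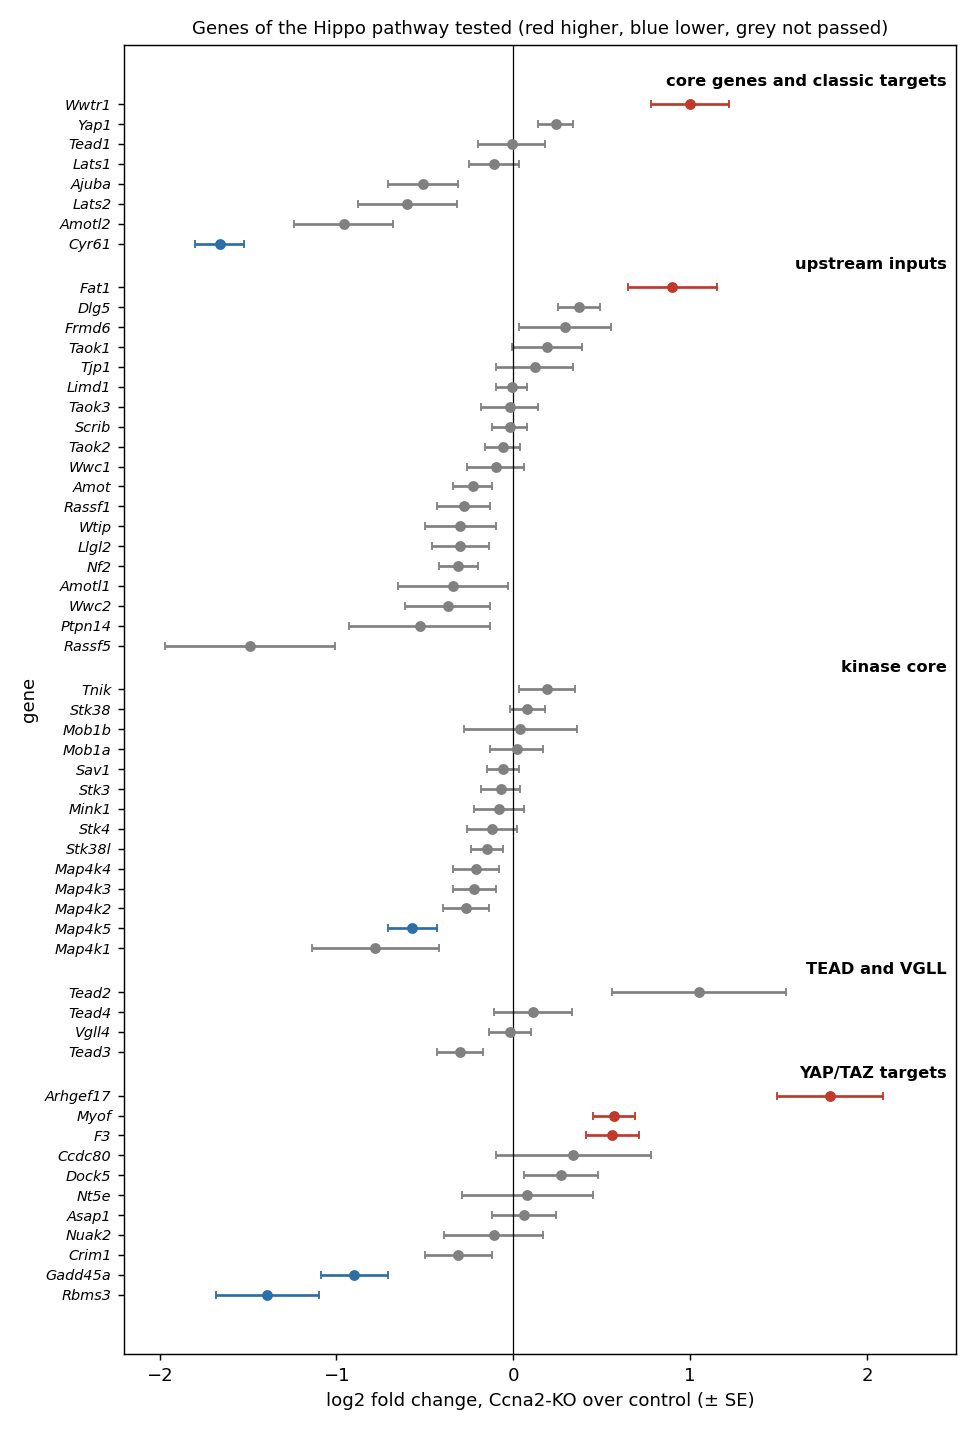
Log2 fold change, Ccna2-KO over control, ± SE (horizontal axis) of tested genes by role, with each gene shown once, in red where it rose, in blue where it fell and in grey where it did not pass. Coloured genes stand singly among grey neighbours in the upstream and kinase groups, and the targets spread to both sides, from -1.66 for Cyr61 to 1.79 for Arhgef17.

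Immediate early genes, which cells induce within minutes of serum or stress and to which Cyr61 also belongs, held 10 genes that fell and 0 that rose. Of 28 such genes, 27 were tested in edgeR, with a median log2 fold change of -0.55 and 10 lower, against 5.71% lower and a median of -0.01 over all genes tested. At an unadjusted p under 0.05, 14 were lower and 0 higher, and the share of all genes at that p is not given here. DESeq2 called 12 lower and limma voom 9, with 0 higher in both. Of all genes, DESeq2 called 1431 lower and limma voom 838. With the library number set term 9 fell and 2 rose, against 8.90% and 9.29% of all genes, with a median of -0.38. Those that rose were Ier5 (0.71 ± 0.15 SE, adjusted p = 0.0102) and Dusp6 (0.67 ± 0.12 SE, adjusted p = 0.00516) in edgeR. Between 3 and 14 fell with single libraries left out. The 14 fell without control replicate 1, where 13.4% of all genes did. Nr4a1, an orphan nuclear receptor, had 121, 98.2, 92.8 and 112 CPM in Ccna2-KO libraries, against 337, 248, 272 and 357 CPM in control libraries (-1.52 ± 0.15 SE, edgeR adjusted p = 0.000548). As with Cyr61, no Ccna2-KO library reached the lowest control. The same held for 8 of the 27 early genes tested, Nr4a1 included, and for 9.60% of all genes. Dusp5, a phosphatase of ERK, fell by 1.31 on the log2 scale (SE 0.21, adjusted p = 0.00498) and Egr3, a zinc finger factor, by 1.5 (SE 0.29, adjusted p = 0.0107).

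Ier2, Fosb, Atf3 and Fos also fell, by 1.0, 1.09, 0.76 and 0.69 on the log2 scale (SE 0.21, 0.24, 0.18 and 0.17, edgeR adjusted p = 0.0166 to 0.0283). Srf, which encodes serum response factor, a regulator of this class and of Cyr61, had 78.8, 81.3, 86.7 and 109 CPM in Ccna2-KO libraries, against 125, 148, 117 and 136 CPM in control libraries (-0.57 ± 0.13 SE, adjusted p = 0.0222). Of the 8 genes named here, Nr4a1, Dusp5 and Egr3 passed without any single library, and the other 5 each lost the call without at least 2 libraries. Of the most abundant early genes that the test did not call, Klf6 (-0.20 ± 0.20 SE), Klf4 (-0.11 ± 0.15 SE) and Zfp36 (-0.58 ± 0.27 SE) did not pass, with adjusted p of 0.582, 0.704 and 0.21.

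**Figure D4:**
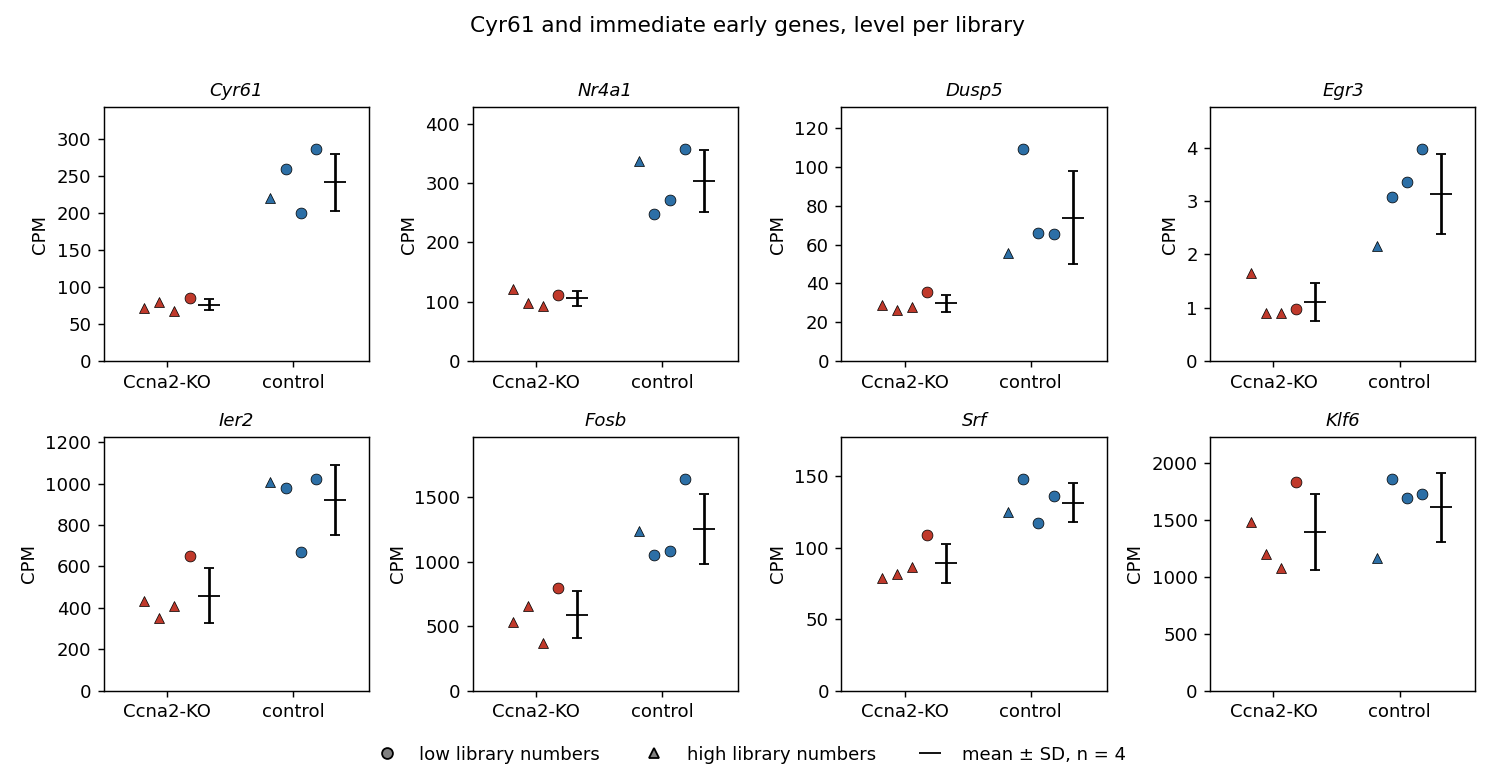
Level in CPM (vertical axis of each panel, from 0) of Cyr61, 6 immediate early genes that fell and Klf6, which did not pass, in Ccna2-KO libraries (red) and control libraries (blue), with mean ± SD beside each group. In every panel but that of Klf6, all Ccna2-KO libraries lie below all controls, as they do for 9.60% of all genes. Cyr61 and Nr4a1 averaged 76.2 and 106 CPM in Ccna2-KO libraries and 241 and 304 CPM in control libraries.

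Actin and adhesion genes controlled by serum response factor moved singly. Of 16, 14 were tested, 1 rose and 1 fell, with a median of -0.09, shares close to the 6.40% and 5.71% of all genes. Tpm2, a tropomyosin, averaged 31.9 ± 2.19 CPM in Ccna2-KO libraries and 14.9 ± 2.06 CPM in control libraries (SD, n = 4 each, log2 fold change 1.10 ± 0.12 SE, edgeR adjusted p = 0.000962). Zyx, the focal adhesion protein zyxin, fell by 0.73 on the log2 scale (SE 0.20, adjusted p = 0.0464), and it passed in 7 of 18 alternative fits, with the adjusted p reaching 0.13 when a library was left out. Actb (-0.17 ± 0.15 SE), Actg1 (-0.26 ± 0.13 SE) and Tagln2 (0.01 ± 0.16 SE) did not pass, with adjusted p of 0.545, 0.249 and 0.978.

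Several of the 10 genes are also expressed by connective tissue and vessels, so markers of those cells were read beside them. The summed level of 12 fibroblast genes was 23.3 to 57.2 CPM in Ccna2-KO libraries and 23.1 to 43.6 CPM in control libraries, and 0 rose and 1 fell (Thy1, -2.32 ± 0.50 SE, edgeR adjusted p = 0.0178), a gene that T cells express as well. At an unadjusted p under 0.05, 3 fibroblast genes were higher (Col3a1, Col6a1 and Sparc) and 2 lower (Thy1 and Pdgfrb), with 1 higher in DESeq2 and 0 in limma voom. The median log2 fold change of the fibroblast list was 0.81, against -0.01 over all genes tested. Of its 10 tested genes, 7 had a positive and 3 a negative log2 fold change. In edgeR 6.40% of all genes rose and 5.71% fell. For 8 smooth muscle genes the sum was 1.92 to 2.90 CPM in Ccna2-KO libraries and 1.24 to 2.12 CPM in control libraries, with Lmod1 at 0 throughout. Only 2 of the 8 were tested, and 1 rose (Des, 2.01 ± 0.36 SE, edgeR adjusted p = 0.00795). For 10 genes of the vessel lining the sum was 2.78 to 4.59 CPM in Ccna2-KO libraries and 3.11 to 5.92 CPM in control libraries. Only 3 of the 10 were tested, and 1 fell (Pecam1, -0.94 ± 0.24 SE, edgeR adjusted p = 0.0315). The 9 nerve and glia genes summed to 2.0 to 2.40 CPM in Ccna2-KO libraries and 1.56 to 3.28 CPM in control libraries, with Sox10 at 0 throughout. Only 2 of the 9 were tested, with 0 called in edgeR, DESeq2 or limma voom and 0 at an unadjusted p under 0.05. Defining markers were near 0 for muscle (Myh11, 0.0328 CPM on average in Ccna2-KO libraries and 0.108 CPM in control libraries) and for vessels (Cdh5, 0.0162 CPM on average in Ccna2-KO libraries and 0.00757 CPM in control libraries). Of the fibroblast genes, Pdgfra averaged 0.0833 CPM in Ccna2-KO libraries and 0.111 CPM in control libraries, and Dcn 9.5 CPM in Ccna2-KO libraries and 5.37 CPM in control libraries. Cyr61 lay between 68.1 and 286 CPM, and the part of fibroblast RNA in it was not tested.

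Most of the leukocyte markers tested were lower along with Cyr61. Of 14, 13 were tested, 1 rose (Cd68) and 8 fell, against 6.40% and 5.71% of all genes. Among those that fell was Ptprc (4.13 CPM on average in Ccna2-KO libraries and 25.4 CPM in control libraries). The T cell genes Cd3e (-2.91 ± 0.45 SE) and Cd3g (-2.84 ± 0.42 SE) fell too. The 4 that did not pass were Csf1r (-0.07 ± 0.42 SE), Ms4a1 (-0.05 ± 0.31 SE), Adgre1 (-0.35 ± 0.50 SE) and Cd52 (-0.40 ± 0.32 SE). In the fit with the set term 0 rose and 6 fell, against 9.29% and 8.90% of all genes. The call of Cd68 ended in 7 of 18 alternative fits, while Cd8a passed in 8 of 18 and Cd3e in all 18. The summed level of the list was 19.8 to 30.8 CPM in Ccna2-KO libraries and 37.0 to 134 CPM in control libraries. Control replicate 1 had the 37.0 CPM, the value nearest to the Ccna2-KO libraries. Its Cyr61 level was 220.2 CPM, and the other controls had 200.3 to 286 CPM. The part of leukocyte RNA in the levels of the 10 genes was not tested. In RNA from a mixed isolate, fewer cells of a type and less RNA per cell cannot be told apart.

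The genes whose levels ran closest to Cyr61 over the 8 libraries were Ces1d (Pearson r = 0.988 of log2 CPM), a carboxylesterase, Zfp944 (0.987) and Tcp11l2 (0.987). Ces1d averaged 14.4 CPM in Ccna2-KO libraries and 49.4 CPM in control libraries (log2 fold change -1.78 ± 0.18 SE, edgeR adjusted p = 0.00064). For Wwtr1 they were Zfp365 (0.986), Ncapd3 (0.975), a subunit of condensin II, and LOC108168068 (0.974). These are the top values of 15892 comparisons each, all points share the division by genotype, and they are given as a description. Among the 10 genes, Lats1 and Lats2 ran closely together (r = 0.94 over 8 libraries, both with a low control replicate 1), and Wwtr1 ran opposite to Cyr61 (r = -0.91).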

How the data were processed

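The deposited table holds estimated counts per RefSeq transcript, which the authors made with kallisto on the mouse build GRCm38 (mm10), per the submitters' processing notes. No kallisto version is named in those notes. Per the labels' protocols, libraries followed standard Illumina protocols. Of 107193 transcripts, 687 without a symbol (3.19% to 5.51% of counts) were left out of library sizes and tests. Counts were summed per symbol and rounded. No library repeated another within sampling noise. Genotype was tested over all 8 libraries by the quasi-likelihood F test of edgeR 4.0.16 (R 4.3.3), after the default low-count filter and TMM scaling, with robust estimates, no covariate and p-values adjusted by Benjamini and Hochberg over 15893 genes and a threshold of 0.05. SEs are log2 fold changes divided by the root of F. CPM was computed on TMM-scaled sizes, and correlations used log2 CPM with a prior count of 2. The test was run on simulated data. Alternatives used limma 3.58.1 voom, DESeq2 1.42.0, other scalings and filters, added terms and left-out libraries. Genes and lists were chosen with earlier results of these data known. The naming rule took the 10 genes, Ccna2, up to 8 called and 3 uncalled genes per list, and for each called gene of the 10 the 3 genes most correlated with it. A gene that the rule takes is not reported here. Intervals are from scipy 1.17.1, coordinates from RefSeq (GRCm38.p6) and exons and transcript lengths from GENCODE M21 on that build.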

Additional observations from a re-analysis of the deposited data

Results flagged for a closer look

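Of 140 groups of 4 libraries examined, 10 held a library far from the other 3, and chance alone flags about 1 in 20 groups. Among the Hippo pathway genes this was Lats1, with 51.7 CPM in control replicate 1 and 78.1 to 80.3 CPM in the other controls. Nuak2, of the YAP and TAZ signature, had 55.1 CPM in the same library and 86.5 to 94.5 CPM in the other controls. Other signature genes stood apart within Ccna2-KO libraries. Rbms3 had 1.09 CPM in Ccna2-KO replicate 3 and 2.08 to 2.32 CPM in the other 3, and Dock5 had 163 CPM in Ccna2-KO replicate 4 and 123 to 127 CPM in the other 3.

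Among the immediate early genes, Egr3 had 1.65 CPM in Ccna2-KO replicate 1 and 0.899 to 0.98 CPM in the other Ccna2-KO libraries. Klf4 had 1554 CPM in Ccna2-KO replicate 4 and 1029 to 1098 CPM in the other 3. Ier2 had 671 CPM in control replicate 3 and 981 to 1023 CPM in the other controls. Tpm2, an actin-binding tropomyosin, had 17.9 CPM in control replicate 3 and 13.7 to 14.1 CPM in the other controls. Of the marker genes, Pecam1 of vessels had 1.48 CPM in Ccna2-KO replicate 1 and 1.25 to 1.26 CPM in the other 3, and Ret of enteric nerves had 1.04 CPM in the same library and 1.33 to 1.37 CPM in the other 3.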

How the results depend on the processing

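Over the alternatives, fold changes of the 8 tested Hippo pathway genes kept their direction and their side of the threshold in 132 cases, passed it in 10, lost it in 5 and reversed in 9. The reversals were those of Tead1, reported as -0.01, and Lats1, reported as -0.11. Tead1 was 0.03 in limma voom and with the replicate block, 0.25 with the library number set term, and 0.76 and 0.83 as single transcripts NM_001166584.1 and XM_006507563.2. With single libraries left out it ranged from -0.18 to 0.12. Lats1 was 0.08 with the set term. With single libraries left out, 1 to 5 of the Hippo pathway genes were called, 0 to 1 higher and 1 to 4 lower, against the reported 2, 1 and 1. With upper quartile scaling, plain totals, no filter, DESeq2, the replicate block and the set term, 2 were called lower, and with the replicate block 0 were called higher. Of all genes 1924 were reported as called, 1017 higher and 907 lower, and leaving out single libraries gave 972 to 4627, 572 to 2457 higher and 400 to 2170 lower. DESeq2 called 2949, of which 1431 were lower, the set term 2892, of which 1415 were lower, and the replicate block 987, with 619 higher and 368 lower. The Hippo lists held 8, 20, 14, 4 and 15 tested genes, some of them on more than 1 list. Over these lists 9 genes were called, 5 higher and 4 lower, where 12.1% of all genes passed (6.40% higher and 5.71% lower). Left-out libraries gave 4 to 22, with 1 to 7 higher and 2 to 15 lower. The 22 came without control replicate 1, where 28.5% of all genes passed. The set term gave 14 with 9 higher, where 18.2% of all genes passed (9.29% higher), and the replicate block 3 higher. The causes were not tested. With the replicate block Wwtr1 lost its call (0.98, adjusted p = 0.0915) and Amotl2 gained one (-0.94, adjusted p = 0.045), both in edgeR. Replicate numbers are not stated to pair libraries. The deviations of same-numbered libraries correlated between -0.35 and 0.15, and 0 of 4 Ccna2-KO libraries ran closest to the control of their own number. As a single transcript, Wwtr1 (NM_133784.3) had 1.15 (adjusted p = 0.246). Depth limited Ctgf, Ankrd1 and Wwtr1, whose counts reached 78 at most in a library.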
